A study of Rattus norvegicus with 28 samples.

Results

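The 7 genes described are Dusp1, Dusp4, Dusp5, Dusp6, Dusp10, Dusp14 and Dusp16, which encode dual-specificity phosphatases that act on MAP kinases. They were found by symbol among the 17455 symbols of the TPM table, and each is represented by its transcript with the highest mean. TPM (transcript abundance after scaling to length and depth) is a level per transcript length, so levels of different genes can be set side by side. Of the 7, 6 averaged 1 TPM or more and were tested among 10275 genes, and Dusp14 was below this level. The levels came from bulk RNA-seq of the insulin-producing rat insulinoma line INS-1. WT cells were compared with cells in which the Med14 gene had been edited to encode S983A. Med14 is a scaffold subunit of Mediator, the complex that connects transcription factors with RNA polymerase II. All cells were moved to serum-free medium, and were then left untreated (CON) or given the GLP-1 receptor agonist exendin-4 (Ex-4, 10 nM) or forskolin (FSK, 10 µM), which turns on adenylyl cyclase, for 1, 8 or 16 h. This gave 7 groups of WT and 7 of Med14 S983A, each with 2 libraries, 28 in all. The knock-in cells came from sorted single cells. By the study's methods its experiments used more than one independently made knock-in line, but the labels do not say which line gave which library, so clone and genotype cannot be told apart here. The methods speak of biological replicates for the RNA-seq, and neither they nor the labels say whether the 2 libraries of a group came from separate cultures or lines, so the p-values measure only the spread between these libraries.

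MAP kinases (ERK, JNK and p38) are switched on when a threonine and a tyrosine of their activation loop are phosphorylated. Dual-specificity phosphatases remove both phosphates, and several are made from genes that the same signals induce, so they form a feedback brake. Dusp1, Dusp4 and Dusp5 are nuclear enzymes induced early after a stimulus, with Dusp5 acting on ERK and Dusp1 also on p38 and JNK. Dusp6 is cytoplasmic, acts on ERK and is a common readout of ERK signalling. Dusp10 and Dusp16 act mainly on p38 and JNK, and Dusp14 is a small phosphatase without the kinase-binding domain of the others. In beta cells GLP-1 receptor agonists raise cAMP, which activates protein kinase A and the factor CREB, and also affects ERK signalling.

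CREB binds the cAMP response element (CRE), and the sequence before the start site was therefore searched for it in the members with a RefSeq promoter sequence (Dusp1, Dusp5, Dusp6, Dusp10, Dusp14 and Dusp16). The 250 bases before the start are printed below for those of these genes that were called at 1 h of FSK in WT, in build GRCr8, which is not the build of the expression values. Capitals mark a full CRE (TGACGTCA), a short CRE (TGACG), an AP-1 site (TGANTCA) or a CArG box, the site of serum response factor, on either strand. A short CRE lies within every full CRE.
Dusp1, chr10:17184603-17184852 (plus strand): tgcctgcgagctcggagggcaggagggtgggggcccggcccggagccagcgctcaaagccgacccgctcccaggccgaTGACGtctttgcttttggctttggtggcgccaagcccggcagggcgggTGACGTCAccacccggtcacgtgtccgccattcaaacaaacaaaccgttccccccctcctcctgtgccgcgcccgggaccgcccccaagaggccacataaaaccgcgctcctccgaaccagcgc
Dusp5, chr1:262543524-262543773 (plus strand): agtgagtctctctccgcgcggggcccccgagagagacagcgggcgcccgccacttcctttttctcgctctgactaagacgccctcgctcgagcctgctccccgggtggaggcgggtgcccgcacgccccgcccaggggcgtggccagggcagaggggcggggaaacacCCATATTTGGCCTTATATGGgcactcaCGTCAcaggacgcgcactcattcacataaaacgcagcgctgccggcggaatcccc
Dusp6, chr7:35979354-35979603 (plus strand): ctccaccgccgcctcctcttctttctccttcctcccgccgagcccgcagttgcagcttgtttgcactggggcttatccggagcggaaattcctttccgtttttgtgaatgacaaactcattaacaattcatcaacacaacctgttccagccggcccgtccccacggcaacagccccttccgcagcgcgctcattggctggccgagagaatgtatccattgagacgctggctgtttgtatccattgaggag
Dusp10, chr13:98145643-98145892 (plus strand): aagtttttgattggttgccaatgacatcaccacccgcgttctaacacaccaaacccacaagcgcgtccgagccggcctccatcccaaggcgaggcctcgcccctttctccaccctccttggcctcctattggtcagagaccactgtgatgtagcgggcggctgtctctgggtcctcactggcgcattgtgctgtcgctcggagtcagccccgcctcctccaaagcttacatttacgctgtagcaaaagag
Dusp1 held a full CRE at bases -124 to -117 and a separate short CRE at -172 to -168, counted from the start site. Dusp5 held no full CRE, a short CRE at -55 to -51 and 2 CArG boxes at -82 to -73 and -72 to -63. No match to any of the motifs was found in the windows of Dusp6 and Dusp10. In Dusp16 a short CRE lay at -70 to -66, and of 3 start sites of Dusp14 only 1 had matches, a short CRE at -77 to -73 and an AP-1 site at -89 to -83. Among 33469 windows of the same length in the RefSeq table, 1.59% held a full CRE, 18.2% a short CRE, 6.34% an AP-1 site and 1.5% a CArG box. A match is a string of letters and not a measured binding site, and its absence from these windows says nothing of the factor.

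Depth was 42551136 to 57231979 fragments, apart from 92635960 in the second Med14 S983A library at 8 h of FSK. Replicates correlated over genes at a Pearson r of 0.998 to 0.999 on log2 values. The beta cell list had 11 measured genes, all 11 with a mean of at least 1 TPM, and their summed level was 50860 to 87430 TPM in the 14 WT libraries and 53130 to 89310 TPM in the 14 Med14 S983A libraries. Of 6 markers of other endocrine cells, 5 were under 1 TPM, among them Irx2, Sst, Hhex and Ppy, and the remaining gene, the glucagon gene Gcg, gave nearly the whole sum, 166 to 1345 TPM in WT and 6.13 to 113 TPM in Med14 S983A. Of 11 exocrine, duct, stromal, vessel and immune markers, 10 were under 1 TPM, and their sum was 1.72 to 4.56 TPM.

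The 7 transcripts together made up 105 ± 4.96 TPM in WT at CON (mean and SD, n = 2, as for all group means below) and 71.3 ± 1.70 TPM in Med14 S983A at CON. Their sum was 291 ± 7.70 TPM in WT after 1 h of Ex-4 and 665 ± 0.758 TPM after 1 h of FSK, and 188 ± 2.24 and 417 ± 13.2 TPM in Med14 S983A. Dusp5 was the most abundant of the 7 in WT at CON, with 33.8% of the sum, and Dusp10 in Med14 S983A, with 37.2%. At 1 h of FSK the largest share was that of Dusp1, 69.5% in WT and 65.2% in Med14 S983A. By 16 h of Ex-4 the sum was 143 ± 6.43 TPM in WT and 110 ± 0.0375 TPM in Med14 S983A, with Dusp5 giving 47.2% and 38.5%. In bulk RNA, fewer cells that express a gene and less RNA per cell cannot be told apart.

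**Figure D1:**
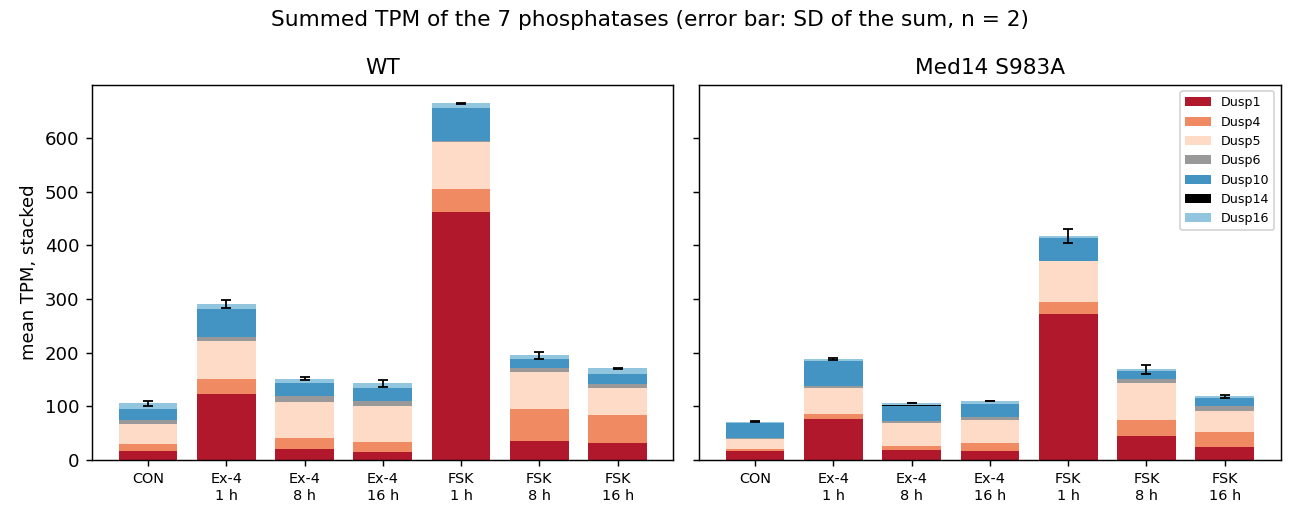
Mean TPM of the 7 phosphatases, stacked, in the 14 groups, WT on the left and Med14 S983A on the right, with the SD of the sum (n = 2). The columns at 1 h of FSK reach 665 and 417 TPM, and most of each is Dusp1.

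Changes against the CON group of the same genotype were tested with limma on log2(TPM + 1), and a gene was called when the adjusted p was under 0.05 and the change over 1.5-fold. The pseudocount of 1 makes the changes of low genes such as Dusp6 look smaller than the ratio of their TPM. In WT, 4 of the 6 tested phosphatases were called at 1 h of Ex-4, all higher, against 2.87% of all genes tested called in either direction. At 8 h of Ex-4 only Dusp5 was called, against 9.6% of all genes, and at 16 h again only Dusp5, against 11.8%. With FSK in WT, 4 rose and Dusp6 fell at 1 h (7.47% of all genes), 3 rose and Dusp16 fell at 8 h (43.6%), and 2 rose at 16 h (34.5%). In Med14 S983A, Ex-4 gave 5 higher at 1 h (3.04% of all genes), 3 higher at 8 h (6.3%) and 4 higher at 16 h (11.9%). With FSK in Med14 S983A 4 rose at 1 h (10.4%), 4 rose and Dusp10 fell at 8 h (46.1%), and 3 rose and Dusp10 fell at 16 h (33.3%). The members' median was a log2 change of 0.99 at 1 h of Ex-4 in WT and 1.42 at 1 h of FSK, beside -0.06 and -0.10 over all genes tested. At 8 h of FSK the median over all genes was -0.34 in WT and -0.28 in Med14 S983A, so values there are read against that shift.

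**Figure D2:**
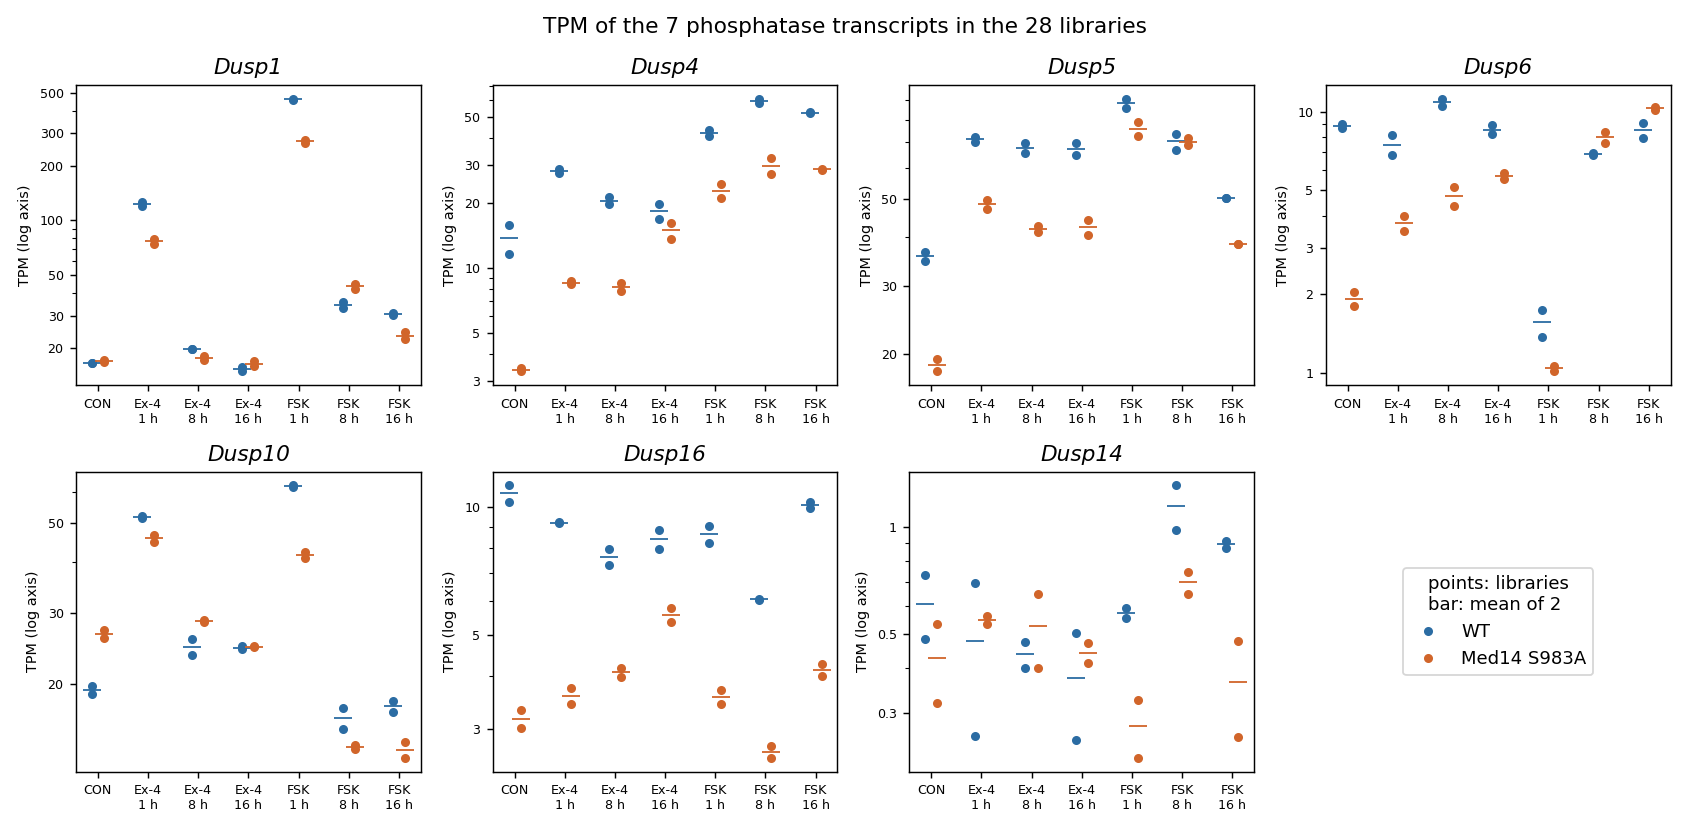
TPM of each of the 7 transcripts on a log axis in all 28 libraries, with points for libraries, a bar for the mean of 2 and colours for the genotype. Dusp1 peaks at 1 h of both agonists, Dusp4 is lowest in Med14 S983A at CON, and Dusp6 is lowest at 1 h of FSK.

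Group means of Dusp4 ran from 3.38 TPM in Med14 S983A at CON to 59.5 TPM in WT at 8 h of FSK, and those of Dusp5 from 18.8 TPM in Med14 S983A at CON to 88.0 TPM in WT at 1 h of FSK. Dusp6 ran from 1.04 TPM in Med14 S983A at 1 h of FSK to 10.9 TPM in WT at 8 h of Ex-4, Dusp10 from 13.7 TPM in Med14 S983A at 16 h of FSK to 61.9 TPM in WT at 1 h of FSK, and Dusp16 from 2.65 TPM in Med14 S983A at 8 h of FSK to 10.8 TPM in WT at CON. With the 14 groups in order of their mean, libraries overlapped in 6 of the 13 neighbouring pairs for Dusp4 and 5 for Dusp5. They overlapped in 5 for Dusp6, 4 for Dusp10 and 4 for Dusp16. With 2 libraries per group the order within those pairs is not settled, and the overlaps are a description with no test.

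Dusp1 (NM_053769, rn6 chr10:16970642-16973425) encodes the early-induced nuclear phosphatase with the full CRE shown above. In WT it measured 16.6 and 16.5 TPM at CON, 126 and 119 TPM after 1 h of Ex-4 and 460 and 465 TPM after 1 h of FSK. Med14 S983A cells had 17.3 and 16.9 TPM at CON, 74.3 and 79.5 TPM after 1 h of Ex-4 and 267 and 277 TPM after 1 h of FSK. The groups at 1 h did not overlap each other or CON, and at 1 h of either agonist both WT libraries were above both Med14 S983A libraries. The log2 change at 1 h of Ex-4 was 2.82 ± 0.05 (SE) in WT (limma, adjusted p = 3.07e-23) and 2.10 ± 0.05 in Med14 S983A, and at 1 h of FSK it was 4.72 ± 0.05 and 3.92 ± 0.05. At 8 h of Ex-4 the libraries were at 19.8 and 19.8 TPM in WT and 18.1 and 17.1 TPM in Med14 S983A, and at 16 h at 14.9 to 16.9 TPM in both genotypes, none of them called. With FSK every Dusp1 library was above CON, at 33.1 to 45.0 TPM at 8 h and 22.3 to 31.1 TPM at 16 h. The change was called at 8 h in both genotypes (log2 1.01 ± 0.05 in WT and 1.3 ± 0.05 in Med14 S983A) and at 16 h in WT (0.85 ± 0.05). At 16 h in Med14 S983A it was 0.43 ± 0.05, under the fold threshold, and passed with ERCC scaling (0.68) and with DESeq2 on ERCC size factors (0.70). From lowest to highest group the mean spanned 15.4 to 462 TPM, and 2 of the 13 pairs of groups next to each other in that order overlapped.

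Dusp10 (NM_001105734, rn6 chr13:104284660-104321455), a phosphatase of p38 and JNK, also peaked at 1 h. In WT it measured 18.9 and 19.7 TPM at CON, 51.7 and 52.1 TPM after 1 h of Ex-4 and 61.7 and 62.2 TPM after 1 h of FSK. Med14 S983A cells had 26 and 27.1 TPM at CON, 45.0 and 46.7 TPM after 1 h of Ex-4 and 42.4 and 41.0 TPM after 1 h of FSK. So Med14 S983A libraries were above WT at CON and below WT at 1 h, without overlap. Dusp10 rose at 1 h of Ex-4 by 1.38 ± 0.06 in WT and 0.77 ± 0.06 in Med14 S983A on the log2 scale, and at 1 h of FSK by 1.63 ± 0.06 and 0.63 ± 0.06. The last of these calls was lost when libraries were scaled on the ERCC spike-ins, at 0.43. At 8 h of FSK the libraries were at 17.4 and 15.5 TPM in WT and 14.1 and 13.8 TPM in Med14 S983A, and at 16 h at 17 and 18.1 TPM and 13.1 and 14.3 TPM. Both Med14 S983A groups fell against their own CON, by 0.89 at 8 h and 0.91 at 16 h on the log2 scale (SE 0.06 for both), and neither WT group was called. The call at 8 h was lost when each library was centred on its median, at -0.55. After 8 or 16 h of Ex-4 the libraries were at 23.6 to 28.8 TPM and none of these changes was called, although in WT at 16 h the value of 0.33 ± 0.06 became 0.61 and was called with ERCC scaling.

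Dusp4 (NM_022199, rn6 chr16:61080767-61090973), a nuclear phosphatase, had the largest changes of the 6 with FSK at 8 h and 16 h. In WT it measured 15.9 and 11.6 TPM at CON, 43.4 and 41.0 TPM at 1 h of FSK, 58.0 and 61.0 TPM at 8 h and 52.9 and 52.2 TPM at 16 h. In Med14 S983A it measured 3.32 and 3.44 TPM at CON, 21 and 24.4 TPM at 1 h of FSK, 32.2 and 27.2 TPM at 8 h and 28.5 and 28.7 TPM at 16 h. The log2 change with FSK was 1.57, 2.05 and 1.88 in WT at 1, 8 and 16 h and 2.43, 2.81 and 2.76 in Med14 S983A (SE 0.10 for each), all called. With Ex-4, WT libraries were at 28.8 and 27.5 TPM at 1 h, 21.3 and 19.7 TPM at 8 h and 16.9 and 19.7 TPM at 16 h. Med14 S983A libraries were at 8.72 and 8.41 TPM at 1 h, 7.81 and 8.49 TPM at 8 h and 16.2 and 13.7 TPM at 16 h. The Ex-4 change was called at every time in Med14 S983A (log2 1.13, 1.06 and 1.86, SE 0.10) and in WT at 1 h (1.00 ± 0.10). In WT the values of 0.56 ± 0.10 at 8 h and 0.40 ± 0.10 at 16 h missed the fold threshold. The WT CON libraries differed (15.9 and 11.6 TPM), and without WT CON replicate 1 the values were 0.77 and 0.61 and both were called. At 8 h leaving out replicate 2 of the Ex-4 group gave 0.61, also called. With all libraries both were called with median centring (0.68 and 0.59), ERCC scaling (0.68 and 0.67) and DESeq2 (0.69 and 0.60). The value at 8 h was also called with edgeR (0.675) and a pseudocount of 0.1 (0.59).

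Dusp5 (NM_133578, rn6 chr1:274245184-274258595), the ERK phosphatase whose promoter window held 2 CArG boxes, was called higher in every treated group but WT at 16 h of FSK. In WT it measured 36.7 and 34.7 TPM at CON and 72.3 and 70.2, 65.8 and 69.6, and 65.1 and 69.6 TPM at 1, 8 and 16 h of Ex-4. Med14 S983A cells had 18.1 and 19.4 TPM at CON and 49.9 and 47.3, 41.3 and 42.7, and 40.6 and 44.2 TPM at these times. No library with Ex-4 overlapped the CON libraries of its genotype, and the WT values stood above the Med14 S983A values in every Ex-4 group. The log2 changes with Ex-4 were 0.98, 0.91 and 0.90 in WT and 1.33, 1.12 and 1.13 in Med14 S983A (SE 0.06 for each), all called. In the limma fit on log2(TPM + 1) it was the one member called at each time of Ex-4 in both genotypes. With median centring, ERCC scaling and both DESeq2 fits Dusp4 was called at each of them as well. With FSK Dusp5 reached 90.6 and 85.5 TPM at 1 h in WT and 72.4 and 79.0 TPM in Med14 S983A. At 8 h of FSK the genotypes overlapped, at 73.7 and 67.0 TPM in WT and 71.7 and 68.7 TPM in Med14 S983A, and at 16 h the libraries were at 50.3 and 50.5 TPM and 38.4 and 38.5 TPM. The FSK changes were 1.28, 0.96 and 0.49 in WT and 1.96, 1.85 and 1.00 in Med14 S983A (SE 0.06), of which the WT value at 16 h missed the fold threshold and passed it with median centring (0.73) and with ERCC scaling (0.83).

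Dusp6 (NM_053883, rn6 chr7:41475163-41479393), the cytoplasmic ERK phosphatase, fell in WT at 1 h of FSK and rose in Med14 S983A with Ex-4 and later with FSK. In WT it measured 8.94 and 8.69 TPM at CON and 1.75 and 1.38 TPM at 1 h of FSK, a fall of 1.94 ± 0.09 on the log2(TPM + 1) scale (limma, adjusted p = 2.4e-15). These levels rested on 117 and 108 fragments at 1 h of FSK, against 583 and 691 at CON. In WT at 1 h of Ex-4 the libraries were at 8.12 and 6.84 TPM, not called, and every later WT group lay between 6.83 and 11.2 TPM with no call. In Med14 S983A it measured 2.05 and 1.80 TPM at CON, below every WT library except those at 1 h of FSK. It then measured 3.99 and 3.50, 5.14 and 4.36, and 5.55 and 5.81 TPM at 1, 8 and 16 h of Ex-4, rises of 0.70, 0.97 and 1.19 (SE 0.09 for each). With FSK it was at 1.07 and 1.02 TPM at 1 h, 8.39 and 7.62 TPM at 8 h and 10.1 and 10.5 TPM at 16 h. The rises at 8 and 16 h of FSK were 1.62 ± 0.09 and 1.95 ± 0.09, both called, and at 16 h both Med14 S983A libraries exceeded the 7.95 and 9.03 TPM of WT. The value at 1 h of FSK in Med14 S983A, -0.52 ± 0.09, missed the fold threshold with a pseudocount of 1. It passed with a pseudocount of 0.1 (-0.82), with ERCC scaling (-0.62) and in the tests on fragments (-0.75 with edgeR, -0.72 with DESeq2 and -1.09 with DESeq2 on ERCC size factors).

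Dusp16 (NM_001106624, rn6 chr4:168472609-168516979), a phosphatase of JNK and p38, was called once with an agonist in each genotype. It measured 11.3 and 10.3 TPM in WT at CON and 3.02 and 3.33 TPM in Med14 S983A at CON. Over the 6 treated WT groups the libraries ranged from 6.05 to 10.3 TPM, and over the 6 treated Med14 S983A groups from 2.57 to 5.80 TPM, so that the genotypes did not overlap. In WT the one call was at 8 h of FSK, with 6.09 and 6.05 TPM and a log2 change of -0.73 ± 0.07. That call was lost with median centring (-0.35), edgeR (-0.50) and DESeq2 (-0.47). In Med14 S983A the one call was a rise at 16 h of Ex-4, with 5.80 and 5.36 TPM and a change of 0.66 ± 0.07, lost with ERCC scaling (0.58). At 16 h of FSK in Med14 S983A the value of 0.30 ± 0.07 passed the fold threshold with DESeq2 on ERCC size factors (0.63). Dusp14 (NM_001270835, rn6 chr10:71363688-71383378) had a mean of 0.557 TPM and between 8 and 50 fragments per library. The table lists 3 transcripts of it that overlap and can share reads, and 11 of the 13 pairs of groups next to each other in its order overlapped. When the filter was dropped limma called it in none of the comparisons, and in 5 of them its adjusted p was 0.001 to 0.00975 with less than a 1.5-fold change. When the 3 transcripts were summed it was called in those 5, with 8 h of FSK higher than CON in WT (0.63), lower with Ex-4 than with FSK in WT at 8 h (-0.92) and 16 h (-0.78), and 8 h of FSK higher than 1 h in WT (0.70) and Med14 S983A (0.78). The 3 transcripts had means of 0.557, 0.535 and 0.530 TPM, and their sum can count the same fragments more than once. It also raises the level against the pseudocount of 1, so these calls are not separate evidence.

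**Figure D3:**
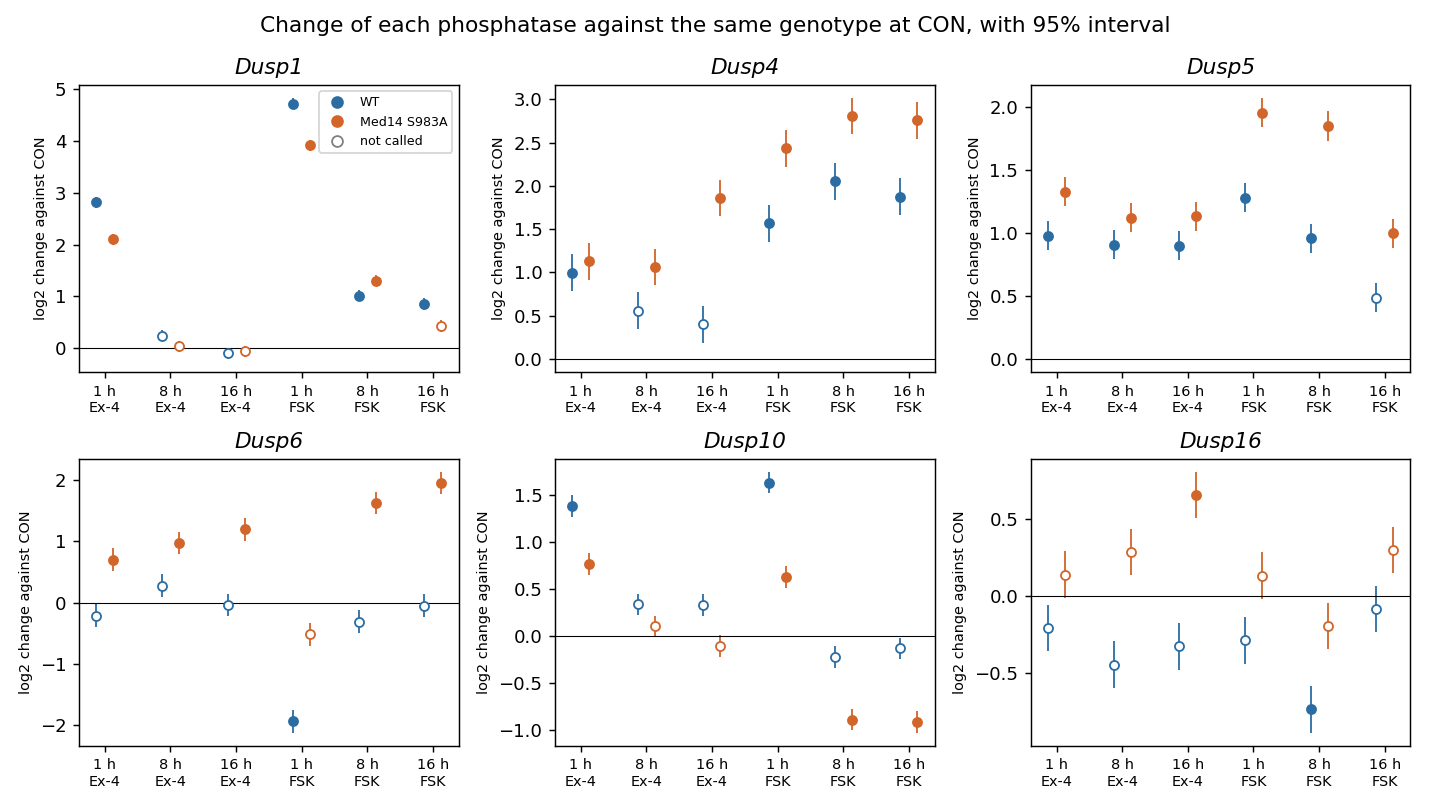
Log2 change of the 6 tested phosphatases against CON of the same genotype, with the 95% interval of the limma fit, for 3 times of Ex-4 and of FSK. Filled points were called. Dusp1 and Dusp10 are highest at 1 h, Dusp4 and Dusp5 stay above 0, and Dusp6 in WT lies below 0 at 1 h of FSK.

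Without agonist, 4 of the 6 tested phosphatases were lower in Med14 S983A than in WT and 0 higher, against 19.4% of all genes called in this comparison. The log2 differences were -1.75 ± 0.09 for Dusp6 (1.92 ± 0.177 against 8.81 ± 0.180 TPM), -1.74 ± 0.10 for Dusp4 (3.38 ± 0.0849 against 13.7 ± 3.0 TPM), -1.50 ± 0.07 for Dusp16 and -0.89 ± 0.06 for Dusp5 (limma, adjusted p = 6.4e-15, 9.5e-14, 2.4e-15 and 3.7e-13). Dusp1 was at 16.5 ± 0.0714 TPM in WT and 17.1 ± 0.308 TPM in Med14 S983A and was not called. Dusp10 was higher in both Med14 S983A libraries, at 0.44 ± 0.06, under the fold threshold, and passed it (0.67) with DESeq2 on ERCC size factors. The median of the 6 was -1.19, beside -0.07 over all genes. The level of Gcg differed between these groups as well, with 166 and 169 TPM in WT and 6.09 and 6.56 TPM in Med14 S983A, and its part in the differences was not tested.

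The genes around each phosphatase were set beside it, taking 25 tested genes on each side on the same chromosome. Around Dusp16 the neighbours' median difference at CON was -0.94, with 43 of 50 below 0 and 30 called lower. A lower median was found around 0.526% of all genes. For Dusp4, Dusp5 and Dusp6, which were also lower in Med14 S983A, the neighbours' medians were -0.09, -0.14 and -0.11, with 7, 5 and 7 of 50 called lower. For Dusp1 and Dusp10 they were -0.07 and -0.05. The window around Dusp16 spanned chr4:157726941-179476932 of rn6, and the part of its other genes in the Dusp16 difference was not tested.

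**Figure D4:**
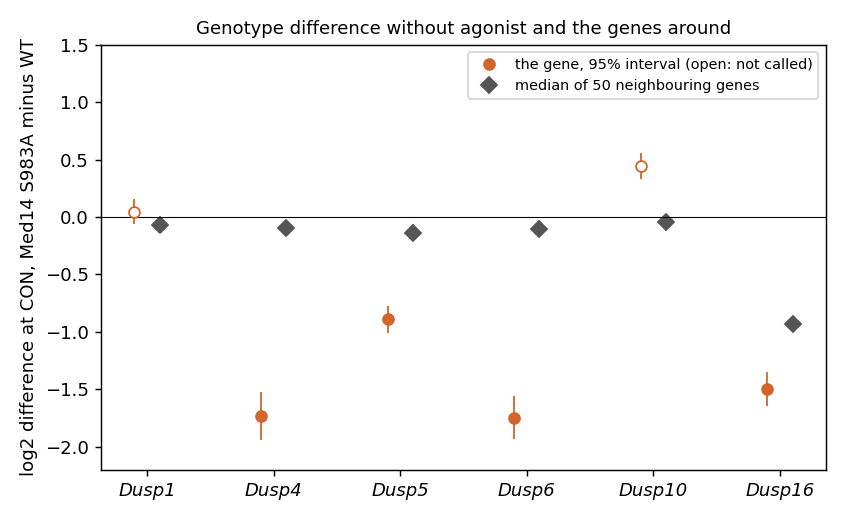
Log2 difference at CON, Med14 S983A minus WT, for each tested phosphatase with its 95% interval, and the median of its 50 neighbouring genes as a diamond. The neighbours' median is -0.94 around Dusp16 and between -0.14 and -0.05 around the other 5 genes.

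Whether the responses differed between the genotypes was tested as the interaction, the log2 response in Med14 S983A minus that in WT. At 1 h of Ex-4, 3 of the 6 were called (1 higher and 2 lower), against 0.672% of all genes. Dusp1 and Dusp10 responded less in Med14 S983A, by -0.71 ± 0.07 and -0.62 ± 0.08, and Dusp6 more, by 0.91 ± 0.13 (limma, adjusted p = 6.3e-07, 1.6e-05 and 6.0e-05). At 1 h of FSK 5 were called, 3 higher and 2 lower, against 1.64% of all genes. Dusp1 and Dusp10 again had the lower response, by -0.81 ± 0.07 and -1.0 ± 0.08. Dusp4 and Dusp5 rose more in Med14 S983A on the log2 scale, by 0.87 ± 0.14 and 0.68 ± 0.08, from lower levels at CON. The call of Dusp5 was lost with ERCC scaling (0.42). In TPM, Dusp4 went from 3.38 to 22.7 in Med14 S983A and from 13.7 to 42.2 in WT. For Dusp5 these levels were 18.8 and 75.7 TPM in Med14 S983A and 35.7 and 88.0 TPM in WT, so both genes stayed below WT. The third positive difference, 1.42 ± 0.13 for Dusp6, was a smaller fall: -0.52 ± 0.09 in Med14 S983A, not called, against -1.94 ± 0.09 in WT. At CON in Med14 S983A Dusp6 was at 1.92 TPM, so the pseudocount of 1 limits how far it could fall. The fall in Med14 S983A was called with a pseudocount of 0.1 (-0.82), ERCC scaling (-0.62), edgeR (-0.75) and both DESeq2 fits (-0.72 and -1.09). At 8 h of Ex-4, 2 were called higher, Dusp6 (0.70 ± 0.13) and Dusp16 (0.73 ± 0.10), against 2.77% of all genes. At 16 h of Ex-4, 3 were called higher, Dusp4 (1.46 ± 0.14), Dusp6 (1.23 ± 0.13) and Dusp16 (0.98 ± 0.10), against 7.24% of all genes. Dusp10 went the other way at 16 h of Ex-4, at -0.43 ± 0.08, under the fold threshold, and was called lower with ERCC scaling (-0.80) and with DESeq2 on ERCC size factors (-0.90). For FSK, 4 were called at 8 h (3 higher and 1 lower, 13.9% of all genes) and 3 at 16 h (2 higher and 1 lower, 17%). Dusp6 had the largest of these differences among the 6, 1.94 ± 0.13 at 8 h and 2.00 ± 0.13 at 16 h. Dusp10 had the one called negative difference, -0.66 ± 0.08 and -0.78 ± 0.08. Here it fell against CON in Med14 S983A (-0.89 and -0.91) and was not called in WT. Dusp4 differed by 0.75 ± 0.14 and 0.88 ± 0.14, and its call at 8 h was lost without WT CON replicate 1 (0.55). Dusp5 differed by 0.89 ± 0.08 at 8 h. Dusp1 at 16 h of FSK was at -0.43 ± 0.07, under the fold threshold, and was called lower with DESeq2 on ERCC size factors (-0.59). Below the fold threshold, Dusp4 at 8 h of Ex-4 (0.50 ± 0.14) passed without WT CON replicate 2 (0.71). With all libraries it passed with a pseudocount of 0.1 (0.655), edgeR (0.615) and DESeq2 (0.612). Dusp16 at 8 h of FSK (0.54 ± 0.10) passed without WT CON replicate 2 (0.60) or Med14 S983A CON replicate 2 (0.60). The differences at all times share the CON libraries, so a CON library that stands apart moves all of them together.

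**Figure D5:**
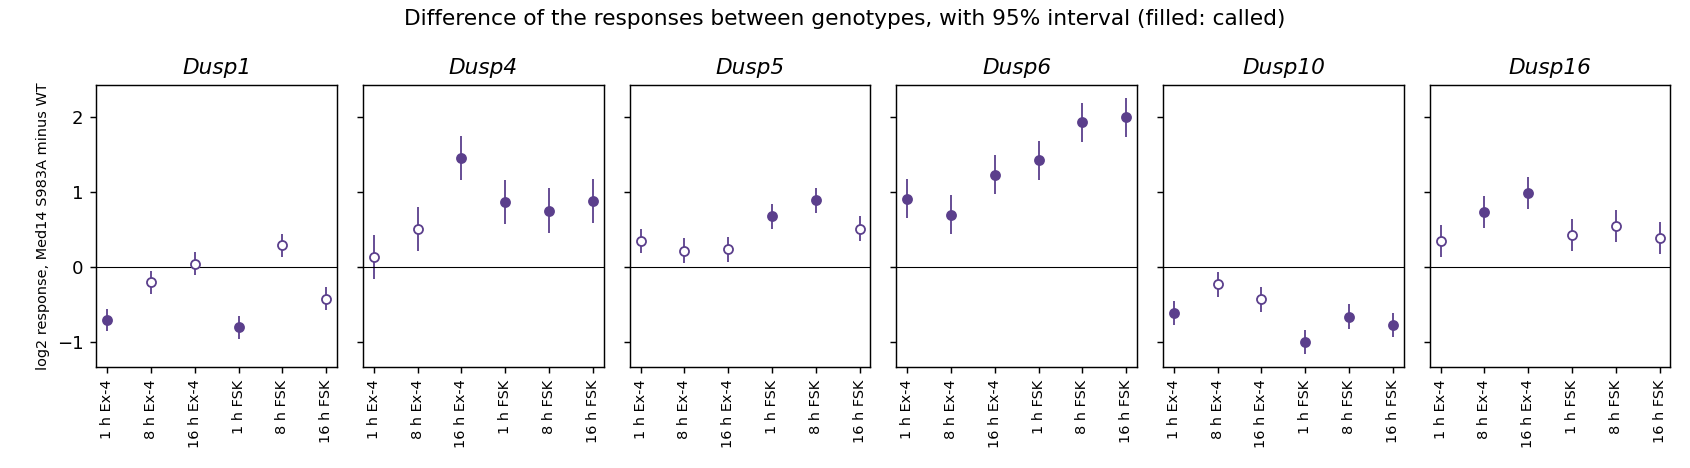
Difference between the genotypes in the log2 response to each agonist and time, Med14 S983A minus WT, with the 95% interval, for the 6 tested phosphatases. Filled points were called. The points of Dusp6 are all above 0 and called, and those of Dusp1 and Dusp10 at 1 h are below 0.

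Ex-4, which acts at the receptor, and FSK, which acts at adenylyl cyclase, were compared at the same time in the same genotype, as Ex-4 minus FSK. In WT at 1 h, 2 of the 6 were called, against 1.79% of all genes: Dusp1 was lower with Ex-4 by -1.91 ± 0.05 and Dusp6 higher by 1.73 ± 0.09. At 8 h in WT 3 were called (28.1% of all genes), with Dusp1 (-0.77 ± 0.05) and Dusp4 (-1.49 ± 0.10) lower with Ex-4 and Dusp6 (0.59 ± 0.09) higher. The Dusp6 value stands at the fold threshold, and its call was lost without replicate 2 of the Ex-4 group (0.54), without replicate 2 of the FSK group (0.57), with median centring (0.32), with edgeR (0.42) and with DESeq2 (0.40). At 16 h in WT 2 were called, Dusp1 (-0.95 ± 0.05) and Dusp4 (-1.48 ± 0.10), against 18.7% of all genes. In Med14 S983A at 1 h 4 were called, against 3.03% of all genes, with Dusp1 (-1.81 ± 0.05), Dusp4 (-1.31 ± 0.10) and Dusp5 (-0.63 ± 0.06) lower with Ex-4 and Dusp6 (1.21 ± 0.09) higher. The Dusp5 call was lost without replicate 2 of the FSK group (-0.57) and with ERCC scaling (-0.42). At 8 h 5 were called, against 36.5% of all genes, with Dusp1 (-1.26 ± 0.05), Dusp4 (-1.74 ± 0.10), Dusp5 (-0.73 ± 0.06) and Dusp6 (-0.65 ± 0.09) lower with Ex-4 and Dusp10 (0.99 ± 0.06) higher. The Dusp6 call was lost without replicate 2 of the Ex-4 group (-0.55) and with ERCC scaling (-0.57). At 16 h 3 were called, against 16.3% of all genes: Dusp4 (-0.90 ± 0.10) and Dusp6 (-0.76 ± 0.09) were lower with Ex-4 and Dusp10 (0.81 ± 0.06) was higher, the last not with ERCC scaling (0.48). Dusp1 at 16 h in Med14 S983A, at -0.49 ± 0.05, was called lower with ERCC scaling (-0.82) and with DESeq2 on ERCC size factors (-0.87), and Dusp16 at 8 h, at 0.48 ± 0.07, was called higher with a pseudocount of 0.1 (0.61) and with DESeq2 on ERCC size factors (0.74). Dusp4 was lower with Ex-4 than with FSK in all 6 comparisons in value, and called in 5. In WT at 1 h its value was -0.57 ± 0.10, which passed without replicate 1 of the Ex-4 group (-0.60) or replicate 2 of the FSK group (-0.61). With all libraries it passed with median centring (-0.63), ERCC scaling (-0.63), edgeR (-0.64), DESeq2 (-0.64) and DESeq2 on ERCC size factors (-0.65). Dusp10 in WT at 8 h, at 0.56 ± 0.06, passed without replicate 1 of the Ex-4 group (0.62) or of the FSK group (0.64). With all libraries it passed with a pseudocount of 0.1 (0.586), ERCC scaling (0.717) and DESeq2 on ERCC size factors (0.725).

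The course between 1 h and 8 h differed among the phosphatases. Dusp1 and Dusp10 fell from 1 h to 8 h in each of the 4 series, by 2.07 to 3.71 and by 0.66 to 1.86 on the log2 scale. For Ex-4 these were the 2 members called, against 8% of all genes in WT and 6.07% in Med14 S983A. For FSK 3 members were called, against 38% of all genes in WT and 42.7% in Med14 S983A, the third being Dusp6, which rose from 1 h to 8 h by 1.63 ± 0.09 in WT and 2.14 ± 0.09 in Med14 S983A. Dusp4, Dusp5 and Dusp16 were called by limma in none of the 4. The Dusp4 value for FSK in WT, 0.48 ± 0.10, was called with median centring (0.74), edgeR (0.69) and DESeq2 (0.71). The Dusp6 value for Ex-4 in WT, 0.49 ± 0.09, was called without replicate 1 of the 1 h group (0.60) and with ERCC scaling (0.61).

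The rest of the MAP kinase pathway was described from lists of its genes by role. Their counts stand beside 2.87% of all genes called at 1 h of Ex-4 in WT, 11.8% at 16 h and 19.4% between the genotypes at CON. Of the 4 other MAP kinase phosphatases (Dusp2, Dusp7, Dusp8 and Dusp9) 2 were tested, and both changed at 1 h of Ex-4 in WT in opposite directions. Dusp8, a phosphatase of JNK and p38, rose from 62.4 ± 2.95 to 104 ± 0.443 TPM (log2 0.73 ± 0.06), and Dusp7, an ERK phosphatase, fell from 14.2 ± 0.871 to 8.74 ± 0.127 TPM (-0.64 ± 0.07). Both were called in these directions again at 1 h of FSK in both genotypes. Of 9 tested atypical dual-specificity phosphatases, limma, edgeR and DESeq2 called 0 at 1 h of Ex-4 in WT (2 had an unadjusted limma p under 0.05), and 1 was lower in Med14 S983A at CON, Dusp3, at 14.1 ± 1.07 TPM against 46.5 ± 0.641 TPM in WT (-1.66 ± 0.06). Among 12 tested MAP kinases the same tools called 0 at 1 h of Ex-4 in WT (3 at an unadjusted p under 0.05), and at 16 h limma called 1 lower, Mapk3, which encodes the ERK1 kinase, at 266 ± 7.0 TPM against 400 ± 18.6 TPM (-0.59 ± 0.04), a call that edgeR and DESeq2 did not make. At CON, Mapk4 was lower in Med14 S983A (-1.38 ± 0.07) and Mapk12, which encodes p38 gamma, higher (1.09 ± 0.12). Among 25 tested upstream kinases and GTPases all 3 tools called 0 at 1 h and at 16 h of Ex-4 in WT (8 and 17 at an unadjusted p under 0.05).

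Of 13 tested genes for other brakes and scaffolds, 1 rose at 1 h of Ex-4 in WT, Spry1, a Sprouty inhibitor of receptor signalling to ERK, from 5.90 ± 1.14 to 17.8 ± 0.631 TPM (1.45 ± 0.10). At 16 h Spry1 (0.64 ± 0.10) and Spry4 (0.59 ± 0.08) were higher than at CON. At CON 4 of these 13 were lower in Med14 S983A, Spry1, Spry4, Spred3 and Nf1, with Spry4 at 2.10 ± 0.351 TPM against 8.42 ± 0.120 TPM (-1.61 ± 0.08) and Spred3 at -1.11 ± 0.08. Of 11 tested ERK output genes 5 rose and 2 fell at 1 h of Ex-4 in WT, with Egr1 going from 7.12 ± 0.523 to 60.1 ± 3.0 TPM (2.91 ± 0.09) and Fosl1 from 0.052 ± 0.0735 to 2.48 ± 0.583 TPM (1.72 ± 0.11). At 16 h 5 rose and 1 fell, among them Epha2 (0.97 ± 0.10) and, falling, Myc (-0.86 ± 0.05). In Med14 S983A at CON 0 of the 11 were higher and 4 lower, Spry4, Etv4, Etv5 and Epha2, with Etv5 at 1.97 ± 0.331 TPM against 6.48 ± 0.212 TPM (-1.34 ± 0.08). At CON edgeR called 5 and DESeq2 6 of the 11. Spry4 stands in both lists. The median difference of the 11 at CON was -0.41, beside -0.07 over all genes.

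The genes whose group means on the log2(TPM + 1) scale followed each phosphatase most closely over the 14 groups were found by Pearson's r, as a description with no test, since 7 of the points share each genotype. Dusp1 was followed by Tent5b (0.984), the nuclear receptor gene Nr4a2 (0.984) and Pnrc1 (0.983). Dusp4 was followed by Rnf185 (0.958), Plk3 (0.931) and Mafk (0.927), Dusp5 by Socs5 (0.918), Lrrc10b (0.873) and Nap1l5 (0.866), and Dusp6 by Gskip (0.896), Sypl1 (0.872) and Naa30 (0.869). Dusp10 was followed by Bcor (0.922) and Fam76a (0.894), and Dusp16 by Gcn1 (0.968), Ube2e2 (0.966) and Ptprt (0.965).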

How the data were processed

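Bulk RNA-seq was measured in 28 libraries of INS-1 cells, grouped by the sample titles. Columns were matched by genotype, treatment, hours and replicate in their names, since their library numbers differ from those of the labels. For the deposited TPM values the authors mapped reads with STAR 2.5.3a to rn6 plus the ERCC sequences and quantified exons with HOMER 4.11.1, with transcript lengths in bases. The deposited counts are those of the 92 ERCC spike-ins, added to a fixed mass of RNA, which the authors used as size factors in DESeq2 1.24.0. The tools and build are from the submitters' processing notes and the study's methods.

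From 19223 lines, 1676 transcripts of repeated symbols were dropped. Log2(TPM + 1) values of the 10275 genes that averaged 1 TPM or more were fitted with limma 3.58.1 in R 4.3.3 (14 group means, eBayes with trend, 14 residual degrees of freedom). Tests were two-sided and adjusted by Benjamini-Hochberg within a comparison, and calls needed an adjusted p under 0.05 and more than 1.5-fold. Fragments were recovered from TPM, length and ERCC counts: of 177175 values under 1000 fragments, 100% were whole (tolerance 0.05 beyond rounding, 2 reads a fragment), where chance gives 22.9%. These fragments gave the tests with edgeR 4.0.16 and DESeq2 1.42.0. The fits were checked on simulated data.

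Alternatives were a pseudocount of 0.1, no filter, a mean of at least 5 TPM, median centring, ERCC scaling, the libraries of the contrast alone, a replicate block, leaving out each library, no fold minimum, summed transcripts, edgeR and DESeq2. The 7 genes, the pathway lists and the tests were chosen with earlier results of these data known. The rule for named genes took all members in every comparison, up to 2 called genes of each list with the largest change among means of at least 5 TPM at 1 h and 16 h of Ex-4 in WT and at CON between genotypes, and the 3 genes most like each member. Genes listed only as called follow the counts. Some genes that this rule names are not reported here. Log2 changes of members are printed only where at least 1 fit with the fold minimum called them. Promoters are from RefSeq, build GRCr8. Protein sequences were not analysed here.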

Additional observations from a re-analysis of the deposited data

Results flagged for a closer look

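The 20 called differences between the genotypes' responses and the 10 called differences between 8 h and 1 h are collected here by gene, because in each the effect of an agonist differed between 2 genotypes or 2 times by a test of the difference itself (limma). Values are on the log2(TPM + 1) scale, Med14 S983A minus WT or 8 h minus 1 h.

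Dusp6 differed between the genotypes under every agonist and time, by 0.91, 0.70 and 1.23 at 1, 8 and 16 h of Ex-4 and by 1.42, 1.94 and 2.00 at 1, 8 and 16 h of FSK. Between 1 h and 8 h of FSK it differed by 1.63 in WT and 2.14 in Med14 S983A. Dusp10 differed between the genotypes by -0.62 at 1 h of Ex-4 and by -1.0, -0.66 and -0.78 at the 3 times of FSK. Between 1 h and 8 h its value was -1.04 with Ex-4 and -1.86 with FSK in WT, and -0.66 with Ex-4 and -1.52 with FSK in Med14 S983A.

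Dusp1 differed between the genotypes at 1 h, by -0.71 with Ex-4 and -0.81 with FSK. Between 1 h and 8 h its value was -2.57 with Ex-4 and -3.71 with FSK in WT, and -2.07 and -2.61 in Med14 S983A. Dusp4 differed between the genotypes by 1.46 at 16 h of Ex-4 and by 0.87, 0.75 and 0.88 at 1, 8 and 16 h of FSK. Dusp5 differed by 0.68 at 1 h and 0.89 at 8 h of FSK, and Dusp16 by 0.73 at 8 h and 0.98 at 16 h of Ex-4. The clone from which the Med14 S983A libraries came and the genotype cannot be told apart in any of these.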

How the results depend on the processing

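Of 174 values of the 6 tested members over all comparisons, 95 were called, and 113 were called in at least 1 fit that kept the fold minimum. Dusp14, described above, is not among these values. None of the 113 changed sign under any alternative. The other 61 were called in no fit that kept it, and 19 of them, at most 0.31 in size on the log2 scale, changed sign in at least 1 alternative, so no direction is given for them. Every call and non-call among the 113 held with no filter, a filter at 5 TPM, summed transcripts, the libraries of the contrast alone and the replicate block, under which Dusp1 at 1 h of Ex-4 in WT was 2.82. Calls were lost for 3 values with median centring, 6 with ERCC scaling, 2 with edgeR, 2 with DESeq2 and 4 with DESeq2 on ERCC size factors, and gained for 5, 11, 6, 7 and 15. A pseudocount of 0.1 gained 5. Leaving out a library gave 548 values, with 5 calls lost and 11 gained. Where not named as such above, the cause was not tested.

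The number of members called at 8 h of Ex-4 in WT went from 1 to 2 with a pseudocount of 0.1, median centring, ERCC scaling, edgeR and both DESeq2 fits, and was 1 to 2 when libraries were left out. At 16 h it went from 1 to 2 with median centring and DESeq2 and to 3 with ERCC scaling and DESeq2 on ERCC size factors, and was 1 to 2 when libraries were left out. The added members were Dusp4 and, as the third, Dusp10. Over all 10275 genes, 8 h of Ex-4 in WT had 443 higher and 818 lower with a pseudocount of 0.1. It had 517 and 373 with median centring, 506 and 389 with ERCC scaling, 544 and 609 with edgeR, and 572 and 563 with DESeq2. At 16 h of Ex-4 these were 665 and 407 with median centring, 855 and 319 with ERCC scaling, and 726 and 583 with DESeq2. Without a fold minimum, which by construction adds calls, 6 members were called at 8 h of Ex-4 in WT. In WT, 4 were called at 16 h of Ex-4 and 4 at 16 h of FSK. Over all 10275 genes that setting called 1789 higher and 4293 lower at 8 h of Ex-4. At 16 h it called 1677 higher and 5380 lower with Ex-4, and 2634 higher and 5637 lower with FSK. The genotype difference in response then had 4, 5 and 6 at 8 h of Ex-4, 16 h of Ex-4 and 16 h of FSK. Over all genes it had 1456 higher and 454 lower, 2995 and 1322, and 3688 and 2266. Ex-4 against FSK had 5, 5 and 5 in WT at 1, 8 and 16 h and 6 in Med14 S983A at 16 h. Over all genes these had 1029 higher and 339 lower, 6022 and 1885, 3859 and 3164, and 3901 and 2991. The comparison of 8 h with 1 h had 5 and 6 in WT (Ex-4 and FSK) and 4 and 5 in Med14 S983A. Over all genes, WT had 2376 higher and 3019 lower with Ex-4 and 2826 and 5498 with FSK. Med14 S983A had 2911 higher and 2195 lower with Ex-4 and 3519 and 5039 with FSK. With so many genes called, the member counts without a fold minimum say little about the members.

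Replicate numbers did not pair the libraries in a consistent way. Over 91 pairs of groups the correlation of same-numbered deviations was -0.28 to 0.28, with a median of 0.003 and 17 over 0.1. Whether some libraries of different groups were processed together cannot be read from these values. Dusp14 is limited by depth, with 8 to 50 fragments per library.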
